A study of Mus musculus with 24 samples.

Results

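Biglycan (Bgn), decorin (Dcn), asporin (Aspn), lumican (Lum), fibromodulin (Fmod), PRELP (Prelp) and osteoglycin (Ogn) are small leucine-rich proteoglycans, short secreted proteins built of leucine-rich repeats. They were taken by name as a family, with earlier results of these data known. The array holds 1 probe set with each of these symbols in the platform annotation, so the 7 genes were 7 of 19505 genes measured. Each gene's level is given in every group below.

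The proteins sit on the surface of collagen fibrils and set how the fibrils assemble and how thick they become. Most carry sugar chains, chondroitin or dermatan sulfate on biglycan and decorin and keratan sulfate on fibromodulin and lumican. Biglycan and decorin also bind the growth factor TGF-beta, and free biglycan is a ligand of Toll-like receptors. In lung, fibroblasts and smooth muscle cells of the airways and vessels are known to make them.

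Whole-lung RNA was measured on 20 Affymetrix arrays from mice killed at 6 months of age. Sildenafil inhibits the enzyme that degrades cyclic GMP, and it was given in drinking water from 6 weeks of age. The groups were Marfan mice given sildenafil (5 arrays), Marfan mice given vehicle (5), wild-type mice given sildenafil (4) and wild-type mice given vehicle (6). Marfan syndrome is a heritable connective-tissue disease. The sources used here do not give the Marfan allele, the strain, the sex or a batch, and the same treatment text stands on every sample, so the groups rest on the sample titles. The design text gives 6 samples per group, and each of the 24 samples has a number of its own in the titles, used here to name its array. No label ties a number to an animal, so a p-value measures the spread between these samples. Levels are normalized log2 values throughout, and 1 log2 unit is a doubling. In whole lung, more cells of a type and more RNA per cell cannot be told apart.

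The arrays differed in brightness, the median of all deposited values of an array. It averaged 6.06 ± 0.28 in Marfan sildenafil, 6.03 ± 0.13 in Marfan vehicle, 6.05 ± 0.14 in wild-type sildenafil and 5.66 ± 0.19 in wild-type vehicle lungs (SD, n = 5, 5, 4 and 6). Wild-type vehicle array 18 was the dimmest array, at 5.32. Marfan sildenafil array 9 had a summed level of the 8 measured macrophage markers of 13.80 log2 units, against at most 12.21 on any other array. It also had the lowest summed levels of the 7 cardiac muscle markers (8.82), the 8 smooth muscle markers (10.87) and the 11 measured lung fibroblast markers (11.81). All 8 markers of lung lay above background on average, and their summed level ran from 15.23 to 15.40. The normalization partly sets this narrow range, since it fixes the top values, with Scgb1a1 at 13.38 on every array. Single markers varied more, as Cldn5 from 9.15 to 10.86 and Hopx from 9.32 to 10.73. The lowest level of any of the 8 was 9.15, so the tissue label was borne out on all 20 arrays. For the 7 genes, results that rest on array 9 or 18 are given with and without them.

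All 7 genes were detected in lung, above the medians of the 23 background probe sets, which ran from 2.56 to 3.28 over the arrays. Biglycan had levels of 10.84, 10.46, 10.66, 10.81 and 10.74 on the Marfan sildenafil arrays 8 to 12, and of 10.22, 10.62, 10.66, 10.51 and 10.77 on the Marfan vehicle arrays 20 to 24. It had 10.77, 10.71, 10.75 and 10.92 on the wild-type sildenafil arrays 1, 4, 5 and 6, and a lowest, median and highest level of 9.82, 10.48 and 10.60 in wild-type vehicle lungs. Every wild-type sildenafil array thus lay above every wild-type vehicle array, while the Marfan groups overlapped with each other and with both wild-type groups. From high to low, the group means were 10.79 in wild-type sildenafil, 10.70 in Marfan sildenafil, 10.56 in Marfan vehicle and 10.38 in wild-type vehicle lungs. Neighbouring means in this order lay 0.09 to 0.17 apart, and the SDs within groups were 0.15, 0.21, 0.09 and 0.29 in Marfan sildenafil, Marfan vehicle, wild-type sildenafil and wild-type vehicle lungs.

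PRELP, which anchors basement membranes to the collagen beneath them, showed a like order. Its levels were 10.89, 9.71, 10.39, 10.83 and 10.74 in Marfan sildenafil lungs, 10.35, 10.14, 10.67, 10.40 and 10.54 in Marfan vehicle lungs, and 10.68, 10.51, 10.68 and 10.78 in wild-type sildenafil lungs. Wild-type vehicle lungs had a lowest, median and highest level of 9.25, 10.09 and 10.50. Wild-type sildenafil lay wholly above wild-type vehicle here too, by a narrow margin, and the lowest arrays of all were the wild-type vehicle array 18 and the Marfan sildenafil array 9. The group means were 10.51 ± 0.49 in Marfan sildenafil, 10.42 ± 0.20 in Marfan vehicle, 10.66 ± 0.11 in wild-type sildenafil and 10.01 ± 0.45 in wild-type vehicle lungs (SD).

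Fibromodulin, a keratan sulfate proteoglycan that guides fibril growth, was spread more widely. Its levels were 6.57, 7.00, 6.53, 6.55 and 6.47 in Marfan sildenafil lungs, 6.11, 7.21, 6.64, 6.62 and 6.11 in Marfan vehicle lungs, and 6.28, 6.04, 7.25 and 6.32 in wild-type sildenafil lungs. Wild-type vehicle lungs had a lowest, median and highest level of 4.92, 6.08 and 6.33. The 5 Marfan sildenafil arrays all lay above the wild-type vehicle arrays, a pair that differs in both genotype and drug and was not fitted as a comparison. The share of all genes without overlap in this pair was not counted, so nothing is drawn from it. A single array was high in each of the other treated or Marfan groups, array 21 in Marfan vehicle and array 5 in wild-type sildenafil lungs. Group means were 6.62 ± 0.22, 6.54 ± 0.46, 6.47 ± 0.53 and 5.93 ± 0.54 in Marfan sildenafil, Marfan vehicle, wild-type sildenafil and wild-type vehicle lungs (SD).

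Asporin, a close relative of biglycan and decorin that lacks their usual sugar chain, averaged 7.29 ± 0.34 in Marfan sildenafil lungs, 7.01 ± 0.19 in Marfan vehicle, 7.04 ± 0.27 in wild-type sildenafil and 7.12 ± 0.38 in wild-type vehicle lungs (SD). Its levels in Marfan sildenafil lungs were 7.46, 6.73, 7.45, 7.58 and 7.23, and in Marfan vehicle lungs 7.30, 6.84, 6.84, 7.09 and 6.97. The highest level of all, 7.78, belonged to a wild-type vehicle lung. Decorin, the best studied collagen-binding member, averaged 10.82 ± 0.27, 10.65 ± 0.22, 10.69 ± 0.23 and 10.69 ± 0.15 in Marfan sildenafil, Marfan vehicle, wild-type sildenafil and wild-type vehicle lungs. Its 20 arrays ran from 10.36, in a Marfan vehicle lung, to 11.24, in a Marfan sildenafil lung. The 4 groups of both genes overlapped.

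Lumican, which keeps fibrils thin and evenly spaced in the cornea, averaged 5.65 ± 0.54, 5.78 ± 0.28, 5.80 ± 0.52 and 5.84 ± 0.32 in Marfan sildenafil, Marfan vehicle, wild-type sildenafil and wild-type vehicle lungs (SD). Both the lowest array, 5.02, and the highest, 6.49, were Marfan sildenafil lungs. Osteoglycin, also called mimecan, averaged 11.53 ± 0.51, 11.51 ± 0.26, 11.59 ± 0.38 and 11.59 ± 0.18 in the same order of groups. Its lowest level was 10.63 on the Marfan sildenafil array 9, where the other 4 arrays of that group had 11.71 to 11.84. Group means of osteoglycin lay within 0.09 of one another, less than the SD in any group.

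**Figure D1:**
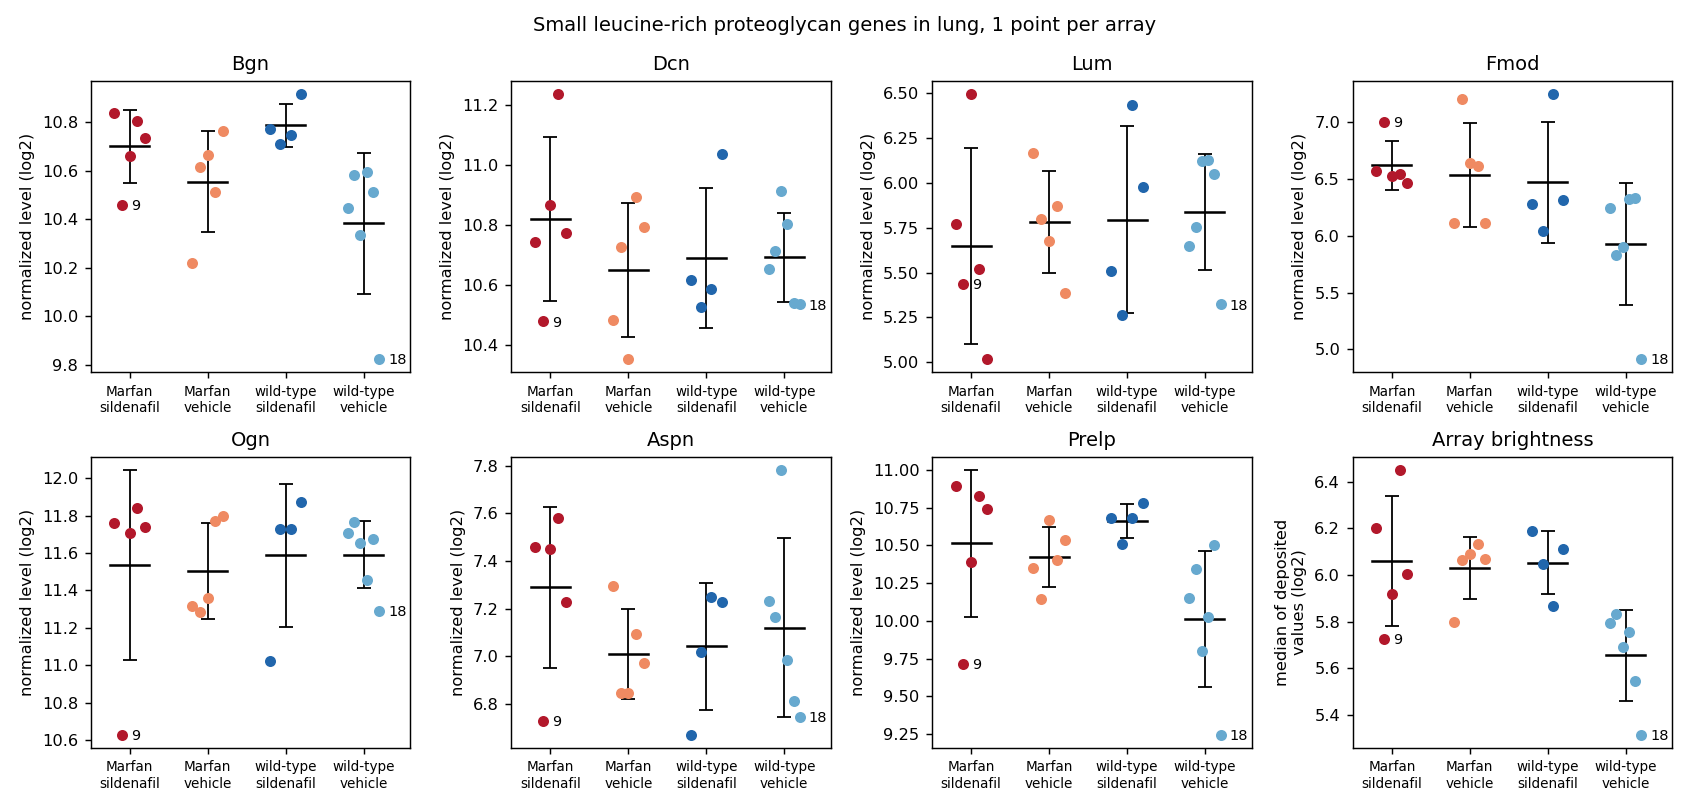
Normalized log2 level of the 7 genes (vertical axis, log2 units) on each array, 1 point per array, with the mean (line) and SD (bars) of each group, and in the last panel the brightness of each array. Arrays 9 and 18 are numbered. The 4 wild-type sildenafil points of Bgn (10.71 to 10.92) and of Prelp (10.51 to 10.78) lie above all wild-type vehicle points.

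The start regions of 5 of the 7 genes were listed by RefSeq on GRCm38.p6, each running from 250 bases before the gene's start to 50 after it. Those of Dcn and Lum are not used here. The motif CCTCCC was counted on both strands with overlaps included. The motif GGGCGG was counted in the same way, and so was TATAAA. They were picked after the sequences had been seen. The start regions of biglycan and PRELP are shown because these genes moved together across arrays, as given further on, and those of osteoglycin and asporin because they lie close together in the genome and also moved together. Capitals mark the motifs, on either strand, and each sequence reads 5′ to 3′ along its gene.
Bgn: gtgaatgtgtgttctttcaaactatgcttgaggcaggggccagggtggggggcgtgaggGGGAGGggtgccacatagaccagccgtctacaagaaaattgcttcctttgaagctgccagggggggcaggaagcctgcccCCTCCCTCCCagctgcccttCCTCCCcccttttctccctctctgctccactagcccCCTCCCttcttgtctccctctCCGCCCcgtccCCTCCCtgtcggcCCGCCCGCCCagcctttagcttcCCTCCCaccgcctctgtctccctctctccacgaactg
Prelp: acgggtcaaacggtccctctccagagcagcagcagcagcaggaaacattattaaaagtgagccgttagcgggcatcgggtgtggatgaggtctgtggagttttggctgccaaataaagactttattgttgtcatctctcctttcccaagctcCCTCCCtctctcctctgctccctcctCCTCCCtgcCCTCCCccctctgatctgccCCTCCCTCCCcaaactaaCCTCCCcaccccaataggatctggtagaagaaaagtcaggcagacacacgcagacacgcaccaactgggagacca
Ogn: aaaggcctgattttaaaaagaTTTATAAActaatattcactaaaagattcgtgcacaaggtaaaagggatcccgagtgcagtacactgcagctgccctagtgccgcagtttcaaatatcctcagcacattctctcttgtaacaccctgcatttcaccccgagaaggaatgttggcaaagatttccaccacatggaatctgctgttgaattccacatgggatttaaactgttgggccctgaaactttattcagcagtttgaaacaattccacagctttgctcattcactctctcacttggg
Aspn: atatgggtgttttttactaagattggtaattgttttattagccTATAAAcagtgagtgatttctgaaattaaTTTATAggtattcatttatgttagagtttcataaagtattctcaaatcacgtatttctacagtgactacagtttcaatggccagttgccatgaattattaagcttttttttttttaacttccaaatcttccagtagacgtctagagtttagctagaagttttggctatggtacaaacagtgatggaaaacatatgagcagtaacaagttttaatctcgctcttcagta

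The window of Bgn, chrX:73483351-73483650 on the plus strand, held 7 copies of CCTCCC and 3 of GGGCGG, and 63.7% of its bases were G or C. That of Prelp, chr1:133921352-133921651 on the minus strand, held 6 copies of CCTCCC at 55.3% G or C. Of 27025 start regions, 1 per gene, 41.5% held CCTCCC and 35.9% held GGGCGG at least once, and the median share of G and C was 52.7%. The windows of Ogn, chr13:49607765-49608064 on the plus strand, and Aspn, chr13:49544193-49544492 on the plus strand, held no CCTCCC and 2 copies of TATAAA each, those of Ogn overlapping. These copies of TATAAA lie in the early part of each window, well before the gene's start. TATAAA stood in 14.2% of start regions. The Ogn window had 42.3% G or C and the Aspn window 31.0%. The Fmod window, chr1:134037004-134037303 on the plus strand, held 1 copy of CCTCCC and neither other motif. A match is a run of letters and no measured binding.

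Without drug, the largest differences between Marfan and wild-type lungs among the 7 genes were those of fibromodulin and PRELP. In Marfan vehicle compared with wild-type vehicle lungs, Fmod differed by 0.61 ± 0.24 (SE, 1.53-fold, 95% interval 0.12 to 1.11) and Prelp by 0.41 ± 0.19 (interval 0.02 to 0.80). Neither passed limma's test, at adjusted p = 0.789 for both genes over all 19505 genes. All 5 Marfan vehicle arrays lay above the wild-type vehicle median in each of these genes, and 3 of them above the highest wild-type vehicle array for Fmod and 2 for Prelp. Bgn stood at 0.17 ± 0.12, Dcn at -0.043 ± 0.12, Lum at -0.058 ± 0.23, Ogn at -0.086 ± 0.18 and Aspn at -0.11 ± 0.17 (SE).

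By count, 0 of the 7 genes passed at adjusted p under 0.05, where 0% of all genes did. At an unadjusted p under 0.05, 2 of the 7 were higher, beside 3.48% of all genes. Of all genes, 1221 (6.26%) had an unadjusted p under 0.05 in either direction. The median difference of the 7 genes was -0.043, against -0.005 for all genes, and 3 of 7 differences were above 0, beside 48.8% of all genes. With the deposited values, where the median gene stood at 0.25, all 7 differences were above 0. With brightness as a covariate the signs of Prelp (-0.047) and Bgn (-0.12) turned, and Fmod stood at 0.51. In the same fit Dcn stood at -0.31 (unadjusted p = 0.0283, adjusted p = 0.657 by limma), Ogn at -0.40 and Aspn at -0.32. Without wild-type vehicle array 18, Fmod stood at 0.41, Prelp at 0.26 and Bgn at 0.061.

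The effect of sildenafil in wild-type lungs gave the largest set of differences in these genes, in biglycan, PRELP and fibromodulin. In wild-type sildenafil against wild-type vehicle lungs, Prelp differed by 0.65 ± 0.20 (SE, 1.57-fold, 95% interval 0.24 to 1.06), with adjusted p = 0.375 by limma. Bgn differed by 0.41 ± 0.13 (1.32-fold, interval 0.14 to 0.67, adjusted p = 0.379) and Fmod by 0.54 ± 0.26 (interval 0.02 to 1.07, adjusted p = 0.530). None passed. Dcn at -0.0017 ± 0.13, Ogn at -0.0042 ± 0.19, Lum at -0.042 ± 0.24 and Aspn at -0.078 ± 0.18 had differences under their standard errors.

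In 2 of the 7 genes, Bgn and Prelp, the wild-type sildenafil arrays lay wholly above the wild-type vehicle arrays, beside 1.42% of all genes. At an unadjusted p under 0.05, 3 of the 7 were higher, beside 4.65% of all genes. At adjusted p under 0.05 limma called 0 of the 7 and 0% of all genes, with 1774 of all genes (9.1%) at an unadjusted p under 0.05. The 7-gene median was -0.0017, and that of all genes was -0.0018. With the deposited values, where the median gene stood at 0.28, all 7 differences were above 0. Wild-type vehicle was the dimmest group, and with brightness as a covariate the differences were 0.17 for Prelp, 0.093 for Bgn and 0.44 for Fmod, and -0.28 for Dcn, -0.34 for Ogn and -0.30 for Aspn. Without wild-type vehicle array 18 they were 0.50, 0.29 and 0.34. Without wild-type sildenafil array 5 the Fmod difference was 0.29.

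**Figure D2:**
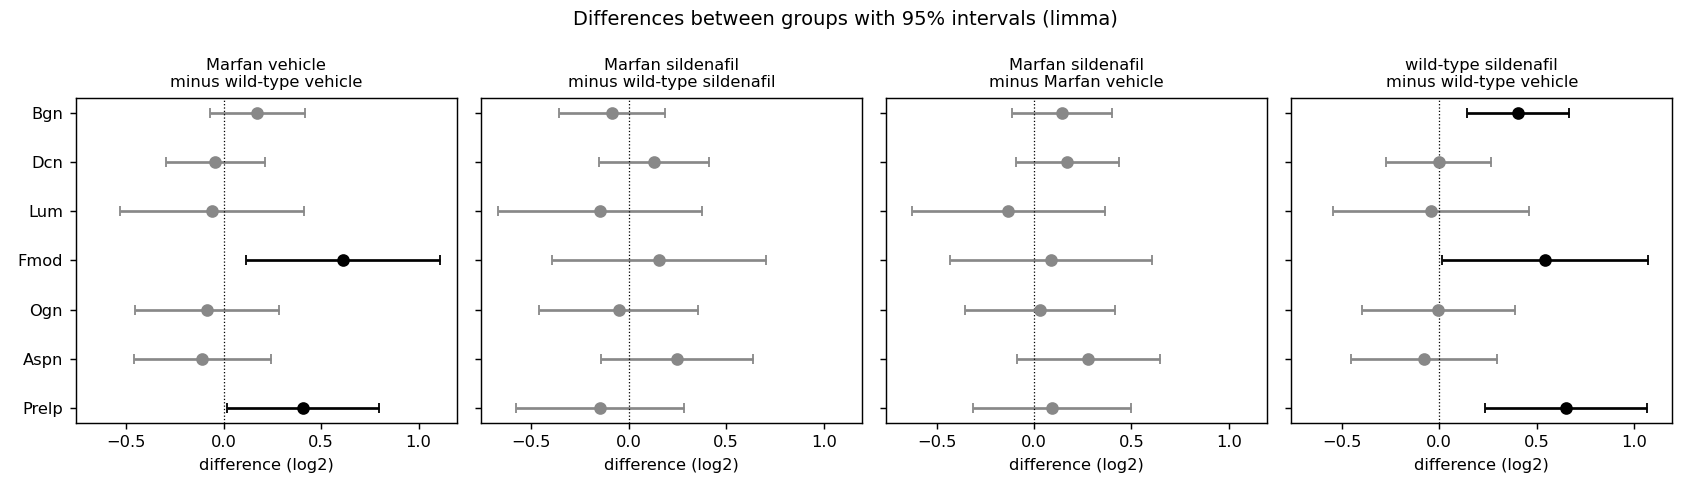
Differences between groups (log2 units, horizontal axis) for each gene in the 4 pairwise comparisons, with 95% intervals from limma; black marks an unadjusted p under 0.05 and grey the rest. None passed at adjusted p under 0.05. Black points are Fmod and Prelp for Marfan vehicle and Bgn, Fmod and Prelp for wild-type sildenafil, each set against wild-type vehicle.

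In Marfan lungs sildenafil was set against vehicle, and asporin showed the largest difference. Aspn differed by 0.28 ± 0.18 (SE, 95% interval -0.088 to 0.65, adjusted p = 0.802 by limma), Dcn by 0.17 ± 0.13, Bgn by 0.14 ± 0.12, Prelp by 0.092 ± 0.20, Fmod by 0.086 ± 0.25 and Ogn by 0.030 ± 0.19. Lum stood at -0.13 ± 0.24. Thus 6 of 7 differences were above 0, where 48.4% of all genes were, and 0 of the 7 had an unadjusted p under 0.05, beside 6.71% of all genes (1308). At adjusted p under 0.05 limma called 0% of genes. Without Marfan sildenafil array 9, the differences were 0.42 for Aspn, 0.29 for Prelp, 0.26 for Ogn, 0.26 for Dcn, 0.21 for Bgn and -0.0092 for Fmod, and none passed. Aspn and Dcn then had an unadjusted p under 0.05 by limma (0.0176 and 0.0448), as did 1340 of all genes.

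Under sildenafil, Marfan lungs were set against wild-type lungs, and no gene stood apart. The largest difference was again that of Aspn, 0.25 ± 0.19 (SE, 95% interval -0.14 to 0.64). Fmod stood at 0.15 ± 0.27, Dcn at 0.13 ± 0.14, Ogn at -0.052 ± 0.20, Bgn at -0.087 ± 0.13, Lum at -0.15 ± 0.25 and Prelp at -0.15 ± 0.21. Of the 7 genes 0 had an unadjusted p under 0.05, beside 3.89% of all genes (759), and limma called 0% at adjusted p under 0.05. Without array 9 the Aspn difference was 0.39 (unadjusted p = 0.0352 by limma), that of Ogn was 0.17 and that of Prelp was 0.050.

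The fit also asked whether the sildenafil effect differed between the genotypes, as the effect in Marfan lungs minus that in wild-type lungs. This difference was -0.56 ± 0.28 for Prelp (SE, 95% interval -1.14 to 0.023), -0.46 ± 0.36 for Fmod, -0.26 ± 0.18 for Bgn and 0.36 ± 0.25 for Aspn. It was 0.17 ± 0.18 for Dcn, 0.034 ± 0.27 for Ogn and -0.089 ± 0.34 for Lum. Adjusted p was at least 0.984 for all 7 genes by limma, so a different response to the drug was not shown for any of them, and the intervals do not exclude differences of up to 1 log2 unit in Prelp and Fmod. With brightness as a covariate the Prelp value was -0.11, that of Bgn 0.028, and that of Dcn 0.43 (unadjusted p = 0.0204 by limma). Without array 9 Prelp stood at -0.36 and Aspn at 0.50 (unadjusted p = 0.0397), without array 18 Prelp stood at -0.40 and Fmod at -0.26, and without both arrays Prelp stood at -0.21. Without wild-type sildenafil array 5 Fmod stood at -0.20. Of all genes 4.47% (872) had an unadjusted p under 0.05 and 0% passed, and 0 of the 7 had an unadjusted p under 0.05, with all arrays and no covariate.

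Averaging over the other factor gave smaller standard errors. Sildenafil against vehicle over both genotypes gave 0.27 ± 0.09 for Bgn (SE, 95% interval 0.09 to 0.46, adjusted p = 0.227), 0.37 ± 0.14 for Prelp (adjusted p = 0.323) and 0.32 ± 0.18 for Fmod (adjusted p = 0.542) by limma. The other 4 genes lay between -0.087 for Lum and 0.10 for Aspn. At an unadjusted p under 0.05, 2 of the 7 genes were higher, beside 5.17% of all genes, and 2127 of all genes (10.9%) passed that mark in either direction, against 0% at the adjusted threshold. With brightness as a covariate both Bgn and Prelp stood at 0.11 (adjusted p = 0.748 and 0.867). The adjusted p was 0.0896 for Bgn and 0.0570 for Prelp without array 9, and 0.307 and 0.464 without array 18. Marfan against wild-type over both treatments gave 0.38 ± 0.18 for Fmod (interval 0.01 to 0.75, adjusted p = 0.918), and every other gene lay between -0.10 and 0.13. There 1 of the 7 was higher at an unadjusted p under 0.05, beside 2.8% of all genes, with 1043 (5.35%) in either direction and 0% at adjusted p under 0.05. That gene, Fmod, stood at 0.33 without array 9, 0.28 without array 18 and 0.23 without both (unadjusted p = 0.0675, 0.0809 and 0.130 by limma). With brightness as a covariate it stood at 0.33 (unadjusted p = 0.120), and without wild-type sildenafil array 5 at 0.51 (unadjusted p = 0.00662).

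Over the 7 genes and 7 comparisons, 8 of 49 tests had an unadjusted p under 0.05, all of them higher and all in Bgn, Fmod or Prelp. In the single comparisons, 3.89% to 10.9% of all genes had such a p in either direction. The comparisons share groups, and 5 of these 8 have the wild-type vehicle group as their direct comparator. The rest are averages over both genotypes or both treatments, which include that group as well. No member had an unadjusted p under 0.05 in Marfan sildenafil against Marfan vehicle or against wild-type sildenafil lungs. Dcn, Lum, Ogn and Aspn had no unadjusted p under 0.05 in any comparison with all arrays and no covariate. The lowest adjusted p of a member was 0.227.

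**Figure D3:**
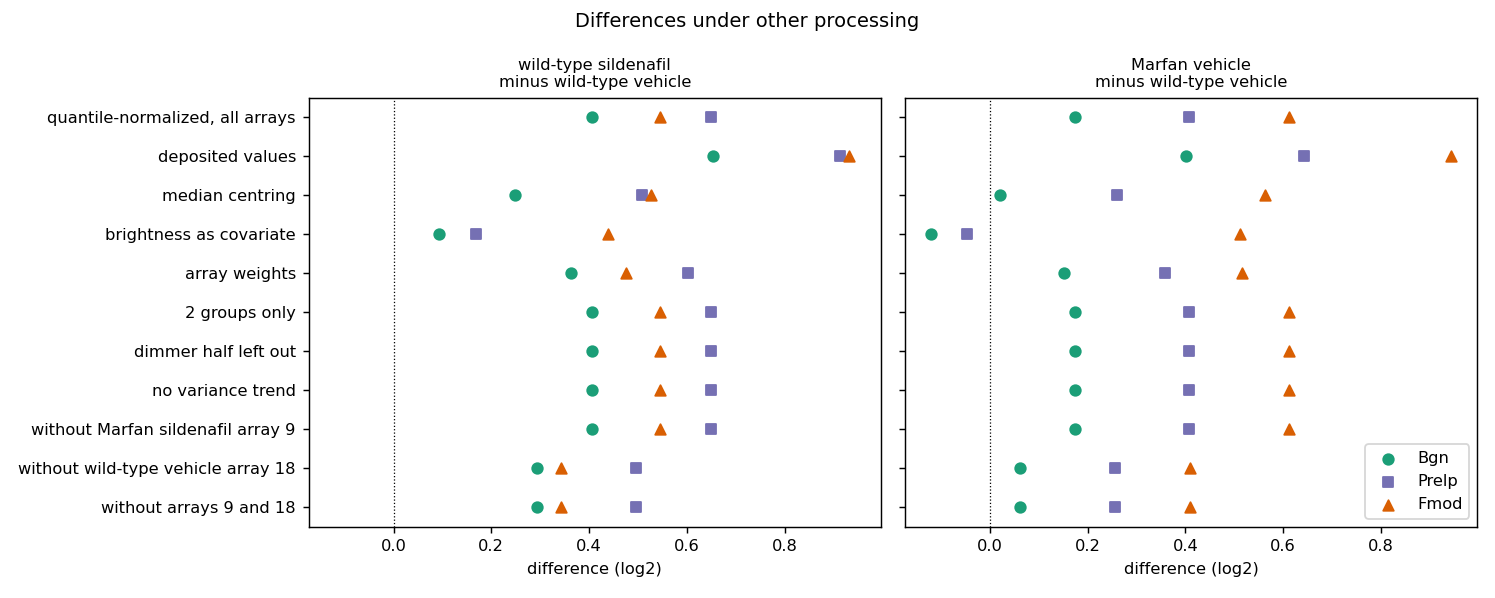
Difference (log2 units, horizontal axis) of Bgn, Prelp and Fmod in both comparisons against wild-type vehicle, under each way of processing the values (rows). With brightness as a covariate Bgn and Prelp lie below 0 in Marfan vehicle compared with wild-type vehicle (-0.12 and -0.047), and Fmod stays at 0.51.

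The level of some members moved with the brightness of the array within groups, even after normalization. Deviations from group means over 20 arrays gave r = 0.73 and rho = 0.63 for Bgn (permutation p = 0.00081 and 0.00523, adjusted over the 7 relations 0.00567 and 0.0366). Prelp had r = 0.65 and rho = 0.59 (p = 0.0136 and 0.0215, adjusted 0.0318 and 0.0562) and Dcn r = 0.63 and rho = 0.53 (p = 0.00889 and 0.0241, adjusted 0.0311 and 0.0562) by permutation. Without arrays 9 and 18, the 2 whose brightness deviation from the group mean lay farthest from the median deviation, r was 0.56 for Bgn, 0.52 for Dcn and 0.32 for Prelp, so that of Prelp rested largely on those arrays. Ogn had r = 0.48 (0.13 without them), Aspn 0.36 (-0.0024), Fmod 0.12 (-0.082) and Lum -0.11 (-0.43). The part of brightness in the differences of Bgn and Prelp was not tested beyond the fit with it as a covariate.

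**Figure D4:**
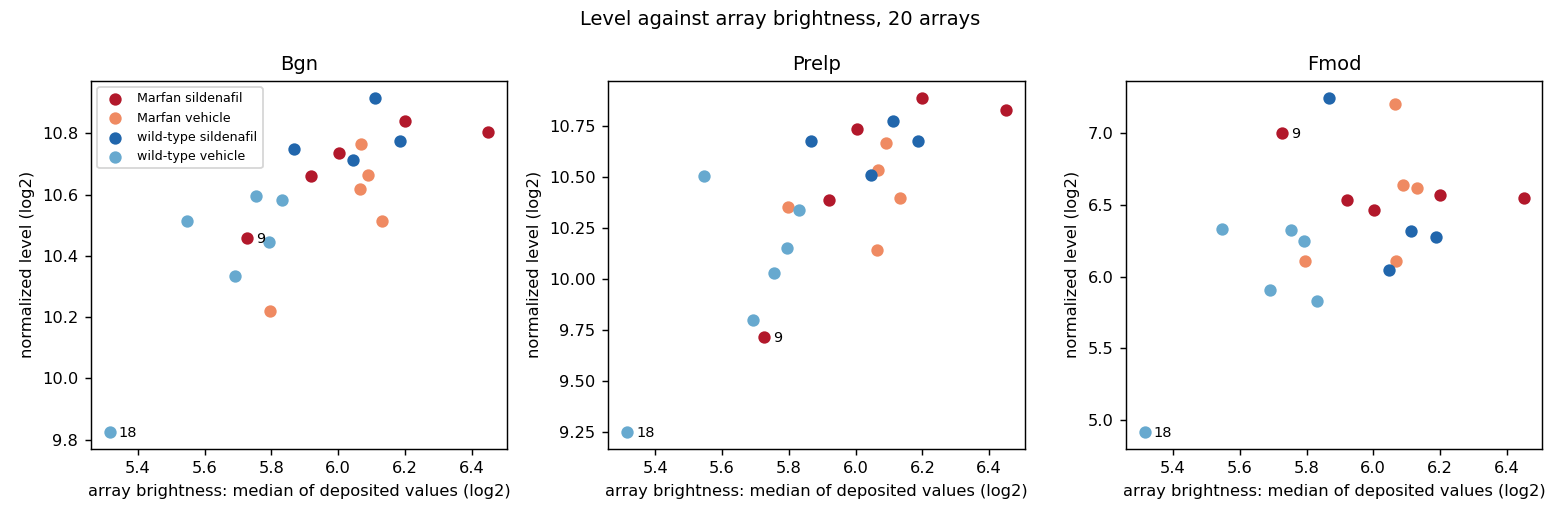
Normalized log2 level of Bgn, Prelp and Fmod (vertical axis) against the brightness of the array (horizontal axis, median of deposited log2 values), 1 point per array, coloured by group. The wild-type vehicle arrays lie at the dim end (up to 5.83), and array 18 is lowest in all 3 genes.

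Some members also moved with each other across arrays. Of 21 pairs, Bgn and Prelp had the highest correlation of within-group deviations, r = 0.77 and rho = 0.73 over 20 arrays (permutation p = 0.00094 and 0.00075, adjusted over 21 pairs 0.0197 and 0.0157). Leaving out the 2 arrays farthest from the Bgn median, r was 0.77, and without arrays 9 and 18 it was 0.54. Both genes also moved with array brightness within groups, at the 99.7th (Bgn) and 98.9th (Prelp) percentile of r over all genes. The part of brightness in this pair was not tested, and the share of all gene pairs with such an r was not counted. Ogn correlated with Prelp (r = 0.66, rho = 0.54) and with Aspn (r = 0.66, rho = 0.57), with permutation p = 0.0066 and 0.00642 for r, adjusted 0.0462 for both, and adjusted p = 0.0685 for rho in both. Without arrays 9 and 18 these values of r were 0.32 and 0.45. Bgn and Ogn gave r = 0.50 and rho = 0.45 (permutation p = 0.00942 and 0.0418, adjusted 0.0495 and 0.146), and 0.27 without arrays 9 and 18. The other 17 pairs had an adjusted p over 0.05. The start regions of Bgn and Prelp, with 7 and 6 copies of CCTCCC, were shown because of the correlation of these genes. The motif was picked after the sequences had been seen. The share of start regions with as many copies was not counted, so nothing is drawn from these counts.

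**Figure D5:**
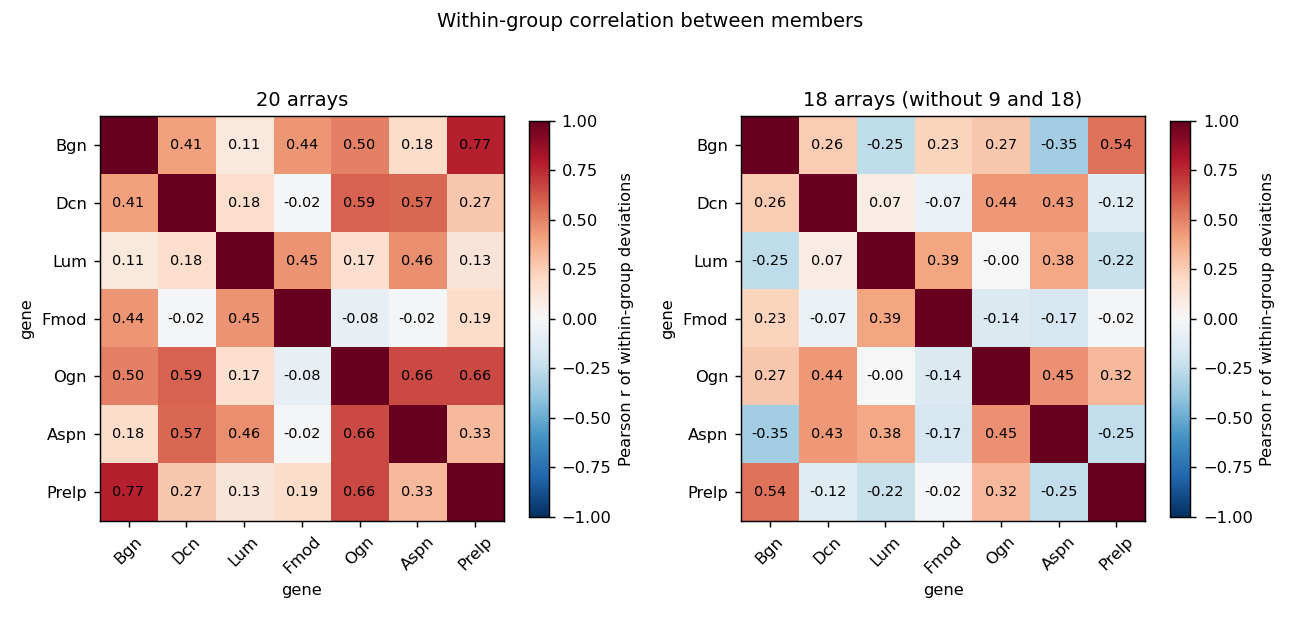
Pearson correlation of within-group deviations for each pair of the 7 genes (both axes), over 20 arrays on the left and 18 arrays without arrays 9 and 18 on the right, with colour from -1 to 1. Bgn with Prelp is highest on the left (0.77) and stands at 0.54 on the right.

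The genes whose within-group deviations were most like the mean of the 7 members were sought among genes above the median level, over the 19 arrays other than array 9. They were P2rx6 (r = 0.88), 4930562C15Rik (0.88), Itgb4 (0.80), Ttll10 (0.78) and Ccdc60 (0.78). P2rx6 encodes an ATP-gated channel subunit and Itgb4 a laminin-binding integrin subunit. The closest single genes were Ccdc97 for Bgn (0.86), Zfp960 for Dcn (0.85), Rpgrip1l for Aspn (0.82), Cul5 for Lum (0.82), Sema6b for Fmod (0.84), Ezh1 for Prelp (0.90) and Serinc3 for Ogn (0.81). These are the highest of many correlations and are given as a description.

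In RefSeq's gene order on GRCm38.p6, 6 of the 7 genes lie beside relatives. Prelp and Fmod are next to each other on chromosome 1, and Optc, the gene of opticin in the eye, is on the other side of Prelp. Dcn and Lum are next to each other on chromosome 10, followed by Kera and Epyc. Aspn and Ogn lie on chromosome 13 in the order Ecm2, Aspn, Omd, Ogn. Bgn lies on chromosome X with no relative among the 3 genes on either side. Within-group deviations of neighbours gave r = 0.19 for Fmod and Prelp, 0.18 for Dcn and Lum and 0.66 for Ogn and Aspn over the 20 arrays.

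Of 11 further small leucine-rich proteoglycans, 10 were measured. Kera, the gene of keratocan in the cornea, had a mean level of 2.93 and Epyc, the gene of epiphycan in cartilage, one of 3.10, both inside the span of the background medians. Podn, the gene of podocan, had a mean level of 7.13 and had differences above 0 in Marfan lungs under both treatments, without passing. They were 0.54 ± 0.19 in Marfan vehicle compared with wild-type vehicle lungs and 0.60 ± 0.21 in Marfan sildenafil against wild-type sildenafil lungs (SE). Averaged over treatments the difference was 0.57 ± 0.14 (limma adjusted p = 0.673). Podn also stood at 0.47 ± 0.20 for sildenafil in Marfan and 0.41 ± 0.21 for sildenafil in wild-type lungs. Ecm2 and Omd, the neighbours of Aspn, stood at 0.021 ± 0.17 and -0.12 ± 0.23 in Marfan vehicle compared with wild-type vehicle lungs, and at 0.34 ± 0.19 and 0.18 ± 0.24 in wild-type sildenafil against wild-type vehicle lungs. None of the 10 passed in any comparison.

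Genes that build the sugar chains were also read. Of 21 measured genes of chondroitin and dermatan sulfate synthesis, 0 passed in any comparison. Under an unadjusted p of 0.05, 1 was higher in Marfan vehicle compared with wild-type vehicle lungs, beside 3.48% of all genes. It was Chst14, the dermatan sulfate sulfotransferase gene, at 0.28 ± 0.11 (SE). In wild-type sildenafil against wild-type vehicle lungs 2 were higher, beside 4.65% of all genes. Among them was Chst3, a chondroitin sulfotransferase gene, at 0.61 ± 0.19. Another 1 was lower, where 9.1% of all genes had such a p in either direction. That one was B3gat3, which completes the linker between protein and chain, at -0.32 ± 0.12, and it stood at -0.40 ± 0.11 in Marfan sildenafil against Marfan vehicle lungs. Averaged over genotypes, B3gat3 stood at -0.36 ± 0.08 (limma adjusted p = 0.0968). Of 7 genes of keratan sulfate synthesis, B4galt1, a galactosyltransferase gene, stood at 0.31 ± 0.07 in the same average (adjusted p = 0.110), and 0 passed.

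Of 8 genes of collagens that these proteins bind, 7 had a difference above 0 in Marfan vehicle compared with wild-type vehicle lungs, with a median of 0.30 beside -0.005 for all genes, 48.8% of which lay above 0. In Marfan sildenafil against wild-type sildenafil lungs 8 of 8 did, with a median of 0.20, beside 48.8% of all genes (9509). None passed. Under vehicle the largest were Col6a2 (0.51 ± 0.13, SE) and Col6a1 (0.49 ± 0.13), chains of the beaded collagen VI that biglycan and decorin bind, and Col3a1 (0.41 ± 0.17). Under sildenafil Col3a1 stood at 0.61 ± 0.19. Col6a2 and Col6a1 also stood at 0.45 ± 0.14 and 0.44 ± 0.14 in wild-type sildenafil against wild-type vehicle lungs. Decorin itself stood at -0.043 and lumican at -0.058 in Marfan vehicle compared with wild-type vehicle lungs.

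Of 13 proteases and cofactors that process or cleave these proteins, 8 had a difference above 0 in Marfan vehicle compared with wild-type vehicle lungs, beside 48.8% of all genes. An unadjusted p under 0.05 was found for 3 of them, beside 6.26% of all genes, and 0 of the 13 passed. Htra1, a serine protease gene, stood at 0.40 ± 0.13 (SE), Pcolce, the enhancer of procollagen processing by BMP1, at 0.41 ± 0.13 and the gelatinase gene Mmp2 at 0.49 ± 0.16. In wild-type sildenafil against wild-type vehicle lungs Pcolce stood at 0.47 ± 0.14, Mmp14 at 0.54 ± 0.23 and Mmp3 at -0.41 ± 0.17. Of 14 receptors and ligands, 12 had a difference above 0 in Marfan vehicle compared with wild-type vehicle lungs (median 0.19), beside 48.8% of all genes. Of the 14, 3 had an unadjusted p under 0.05, beside 6.26% of all genes. In wild-type sildenafil against wild-type vehicle lungs 11 lay above 0 (median 0.18), beside 49.6% of all genes. There 5 had an unadjusted p under 0.05, beside 9.1% of all genes. By the adjusted test 0 passed. The TGF-beta genes in wild-type sildenafil against wild-type vehicle lungs stood at 0.31 ± 0.11 for Tgfb1, 0.57 ± 0.17 for Tgfb2 and 0.43 ± 0.15 for Tgfb3. Wild-type vehicle was the dimmest group. Values with brightness as a covariate or without array 18 were read for the 7 members only. Those of the listed genes and of the further proteoglycans were not read that way.

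Markers of cells that make these proteins were read on the same arrays, and none passed in any comparison. The summed level of the 11 lung fibroblast markers ran from 11.81 to 12.76 in Marfan sildenafil, 12.41 to 12.77 in Marfan vehicle, 12.57 to 12.73 in wild-type sildenafil and 12.28 to 12.53 in wild-type vehicle lungs. The ranges of the wild-type groups did not overlap. That of the 6 pericyte markers ran from 9.19 to 9.52, 8.90 to 9.48, 9.27 to 9.49 and 8.87 to 9.12 in the same order, again without overlap between the wild-type groups. Of single genes, 1.42% lay wholly higher in wild-type sildenafil than in wild-type vehicle lungs. How often a summed level does so was not counted. Neither sum was read with brightness as a covariate, and wild-type vehicle was the dimmest group. The 8 smooth muscle markers overlapped, at 11.53 to 11.94 in wild-type sildenafil and 11.35 to 11.94 in wild-type vehicle lungs. Of 12 cartilage markers, 4 lay above 0 and 8 below in wild-type sildenafil against wild-type vehicle lungs (median -0.10), and Hapln1 lay at background. Among the 4 tendon markers Tnmd lay at background. Of the 7 mesothelium markers, 6 lay above 0 in Marfan vehicle compared with wild-type vehicle lungs (median 0.35). An unadjusted p under 0.05 was found for 3, beside 6.26% of all genes, the first of them Msln at 0.66 ± 0.24 (SE). Averaged over treatments, 6 of these 7 lay above 0 in Marfan against wild-type lungs, beside 48.2% of all genes. In that average 4 had an unadjusted p under 0.05, beside 5.35% of all genes. There 8 of 8 macrophage markers also lay above 0 (median 0.42), none with an unadjusted p under 0.05. In the same average all 7 cardiac muscle markers lay below 0 (median -0.36, none with an unadjusted p under 0.05). Array 9, with the highest macrophage sum and the lowest cardiac muscle sum, is part of both values. Between Marfan and wild-type lungs the macrophage median was 0.14 under vehicle and 0.67 under sildenafil, where array 9 belongs. The cardiac muscle median was -0.34 under vehicle and -0.45 under sildenafil. These list medians were not computed without array 9. The part of these cell types in the differences of Bgn, Prelp and Fmod was not tested.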

How the data were processed

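Per the labels' protocols, the GeneChip Pico kit was used on 700 pg of lung RNA with an integrity number above 8.5. The authors made the deposited log2 values with Affymetrix Expression Console and RMA, per the submitters' processing notes. Versions were not given in the sources used here. Of 24 columns, 20 held values. The other 4, titled as failing quality control (1 Marfan sildenafil, 1 Marfan vehicle, 2 wild-type sildenafil), held none.

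Of 22206 transcript probe sets, 19572 had 1 symbol, 0 several and 2634 none listed. The probe set with the highest mean stood for each of 19505 genes. Array medians differed, so values were quantile-normalized. Groups were fitted together (16 residual degrees of freedom) with limma 3.58.1 in R 4.3.3, with an eBayes variance trend. P-values are two-sided and Benjamini-Hochberg adjusted over all genes, with a threshold of 0.05. Permutation tests used 100000 resamples, in Python 3.11.15 with scipy 1.17.1. The fit was tested on simulated data. Of changes of 0.5 log2 units it called 34.3% in Marfan vehicle minus wild-type vehicle and 22.4% in wild-type sildenafil minus wild-type vehicle. For the difference of the sildenafil effect between genotypes it called 13.4%. Of changes of 1 log2 unit it called 86.6%, 83.6% and 59.7% in the same order. True differences of 0.5 log2 units can thus be missed. The number of arrays limits precision (median SE 0.16 for Marfan vehicle against wild-type vehicle).

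The members, gene lists and tests were chosen with earlier results of these data known. Named beside the members were up to 4 genes per list and comparison with the smallest p, all related proteoglycans, the neighbours and the genes of most similar pattern. Alternatives were normalization, brightness as a covariate, array weights, fitting 2 groups only, a filter on dim genes, no variance trend and leaving out arrays. Cfd, Chpf2, Pdgfra, Cd68, Ly6g and Tsku were not measured here.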

Additional observations from a re-analysis of the deposited data

Results flagged for a closer look

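In 4 of the 28 combinations of gene and group, 1 array lay further from its group than Dixon's test at 95% allows. Chance flags about 1 in 20 groups. The 4 came from 2 arrays. On Marfan sildenafil array 9, Fmod had the highest level of its group, 7.00, where the other 4 arrays had 6.47 to 6.57, and Ogn the lowest, 10.63, where they had 11.71 to 11.84. On wild-type vehicle array 18, Bgn had the lowest level, 9.82, where the other 5 had 10.33 to 10.60, and Fmod the lowest, 4.92, where they had 5.83 to 6.33. Array 9 had a summed macrophage marker level of 13.80 and array 18 was the dimmest array, at 5.32. The part of either in these values was not tested.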

How the results depend on the processing

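None of the 7 genes passed under any of 29 alternative settings, and the lowest adjusted p of a member was 0.0538, for Prelp in sildenafil averaged over genotypes without arrays 9 and 18 (limma). Of 1393 member values under the alternatives, 1276 kept their sign and 117 turned it. Part of the 1276 could not turn, so this count is no measure of stability. Fitting 2 groups only, no variance trend and the filter on dim genes leave a difference as it was. So does leaving out an array of a group outside a pairwise comparison. The cause of the turns was not tested, and none of the values that turned had passed. With array brightness as a covariate the sign turned for Bgn -0.12, Lum 0.027 and Prelp -0.047 in Marfan vehicle minus wild-type vehicle and Lum 0.048 in wild-type sildenafil minus wild-type vehicle. Further values of opposite sign were Bgn 0.028 in the interaction and Aspn -0.038, Bgn -0.11, Dcn -0.091 and Prelp -0.10 in Marfan averaged over treatments. It also turned for Aspn -0.019, Dcn -0.065 and Ogn -0.17 in sildenafil averaged over genotypes. With brightness as a covariate and array 9 left out, a setting chosen after seeing the data, the sign turned for Bgn -0.13 and Lum 0.12 in Marfan vehicle minus wild-type vehicle and Fmod -0.0032 and Ogn 0.15 in Marfan sildenafil minus wild-type sildenafil. Further values of opposite sign were Fmod -0.086 in Marfan sildenafil minus Marfan vehicle and Lum 0.15 in wild-type sildenafil minus wild-type vehicle. It also turned for Bgn 0.028 in the interaction and Bgn -0.11, Dcn -0.056 and Lum 0.034 in Marfan averaged over treatments. Further values of opposite sign were Dcn -0.028 and Lum 0.060 in sildenafil averaged over genotypes. With array weights the sign turned for Ogn 0.13 and Prelp 0.020 in Marfan sildenafil minus wild-type sildenafil and Ogn 0.037 in Marfan averaged over treatments. With the deposited values as they stand the sign turned for Aspn 0.23, Dcn 0.17, Lum 0.30 and Ogn 0.086 in Marfan vehicle minus wild-type vehicle and Aspn 0.30, Dcn 0.23, Lum 0.36 and Ogn 0.17 in wild-type sildenafil minus wild-type vehicle. Further values of opposite sign were Ogn -0.12 in the interaction and Lum 0.068 and Ogn 0.028 in Marfan averaged over treatments. It also turned for Lum 0.13 in sildenafil averaged over genotypes. With median centring the sign turned for Bgn -0.014 and Dcn -0.026 in Marfan averaged over treatments and Ogn -0.11 in sildenafil averaged over genotypes. Without arrays 9 and 18, also chosen after seeing the data, the sign turned for Ogn 0.17 and Prelp 0.050 in Marfan sildenafil minus wild-type sildenafil and Fmod -0.0092 in Marfan sildenafil minus Marfan vehicle. Further values of opposite sign were Lum 0.066 in the interaction and Ogn 0.014 in Marfan averaged over treatments. The deposited values, which keep the brightness differences, gave a 7-gene median of 0.30 in Marfan vehicle minus wild-type vehicle, where the median of all genes was 0.25, 0.36 in wild-type sildenafil minus wild-type vehicle, where it was 0.28, and -0.45 in the interaction, where it was -0.24. Of all genes, 0 passed with the values normalized as reported. With the deposited values 5 passed in Marfan vehicle minus wild-type vehicle, 2 in Marfan averaged over treatments and 3 in sildenafil averaged over genotypes. With array weights the counts were 1, 5 and 68 in the same comparisons. In sildenafil averaged over genotypes, 10 passed with the dimmer genes left out and 27 without arrays 9 and 18. Leaving out 1 array at a time, between 0 and 2 genes passed in Marfan vehicle minus wild-type vehicle and in Marfan averaged over treatments, and between 0 and 74 in sildenafil averaged over genotypes, the highest without Marfan sildenafil array 9. Signs of small differences turned as follows. In Marfan vehicle minus wild-type vehicle the lowest and highest values were -0.18 and 0.023 for Aspn, -0.10 and 0.031 for Dcn and -0.16 and 0.040 for Lum. In Marfan sildenafil minus wild-type sildenafil the lowest and highest values were -0.36 and 0.065 for Lum, -0.24 and 0.17 for Ogn and -0.24 and 0.050 for Prelp. In Marfan sildenafil minus Marfan vehicle the lowest and highest values were -0.021 and 0.25 for Fmod, -0.34 and 0.026 for Lum, -0.047 and 0.26 for Ogn and -0.0022 and 0.29 for Prelp. In wild-type sildenafil minus wild-type vehicle the lowest and highest values were -0.15 and 0.054 for Aspn, -0.12 and 0.053 for Dcn, -0.26 and 0.14 for Lum and -0.10 and 0.18 for Ogn. In the interaction the lowest and highest values were -0.30 and 0.12 for Lum and -0.15 and 0.26 for Ogn. In Marfan averaged over treatments the lowest and highest values were -0.013 and 0.085 for Bgn, -0.0092 and 0.10 for Dcn, -0.21 and 0.0036 for Lum and -0.16 and 0.044 for Ogn. In sildenafil averaged over genotypes the lowest and highest values were -0.19 and 0.0019 for Lum and -0.035 and 0.13 for Ogn. No paired analysis was possible because no number is shared between groups in the titles. The planned use of other probe sets was not run, since each of the 7 genes has 1.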
